A study of Mus musculus with 13 samples.

Results

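Intestinal crypts and crypt-derived organoids that both lack Eed were compared directly by RNA-seq. The comparison used 4 of the 13 libraries of the series, 2 of Eed knockout (KO) crypts and 2 of Eed KO organoids, which were chosen by their labels and sequenced in the same run, numbered 385. The labels give the Eed KO genotype as Eed-/- and that of controls as WT. Crypts, the epithelial pockets at the base of the villi, came from mice that received beta-naphthoflavone (bNF) for 6 weeks from the age of 6 weeks and were killed at 12 weeks. Villi had been scraped off before the crypts were released with EDTA. Organoids, which are epithelial structures grown in Matrigel from isolated crypts, came from AhCre;Eed f/f crypts and were given bNF for 10 days. In AhCre mice the Cre recombinase is driven by the promoter of Cyp1a1, which bNF switches on through the aryl hydrocarbon receptor, and all groups described here had received bNF. The organoid labels name AhCre, whereas those of the run 385 crypts give only the genotype. Strain was labelled C57BL/6-FVB mixed for crypts, C57BL/6-FVB for Eed KO organoids and FVB for WT organoids. The 2 WT crypts and the 2 WT organoids of run 385, the latter from AhCre crypts, served as a background contrast of crypts and organoids.

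Eed is a core subunit of Polycomb repressive complex 2 (PRC2), in which the methyltransferases Ezh2 or Ezh1 place methyl groups on lysine 27 of histone H3 and so keep genes of other tissues and stages silent. In the intestine, stem cells at the crypt base divide and give rise to absorptive enterocytes and to secretory Paneth, goblet, enteroendocrine and tuft cells. A freshly isolated crypt holds mostly stem, dividing and Paneth cells with adhering immune and stromal cells, whereas an organoid is grown as epithelium alone in medium with defined growth factors and forms its own crypt and villus domains.

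Each library held 11421666 to 13752066 counts. Of 23969 genes in the table, 22921 lay outside chromosomes X and Y, which were left out because the libraries differed in sex pattern, and 14009 passed the filter on low counts. Levels are counts scaled to a common library size (CPM) with TMM-adjusted library sizes, differences are log2 values of Eed KO crypts minus Eed KO organoids with their standard error (SE), and every comparison was of 2 libraries against 2. Genes described as higher or lower had an adjusted p under 0.05 in edgeR's quasi-likelihood test over all 14009 genes, the rule named as called below. Whether the paired libraries of each group stem from different mice or cultures is not labelled, and the p-values therefore reflect only how far these libraries spread, possibly for technical reasons. Mitochondrially encoded genes took 16.5% and 17.99% of the counts of the Eed KO crypts and 9.83% and 7.98% of those of the Eed KO organoids. Xist, the RNA of the inactive X chromosome, was at 1915 and 3592 CPM in the Eed KO crypts and at 0.983 and 1.54 CPM in the Eed KO organoids. In the WT libraries this order was opposite, with 2.48 and 2.58 CPM in crypts and 1265 and 1384 CPM in organoids. Sex, the length of bNF treatment, the strain label and growth in culture changed together between crypts and organoids, in Eed KO and in WT. Their parts in any difference cannot be told apart.

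Eed itself (chr7:89954656-89980983, GRCm38) was counted at 16.4 and 25.8 CPM in the Eed KO crypts and at 19.7 and 31.2 CPM in the Eed KO organoids. WT crypts had 54.3 and 61.9 CPM and WT organoids 75.3 and 63.9 CPM, so all 4 Eed KO libraries lay below all 4 WT libraries. Between Eed KO crypts and organoids the log2 difference was -0.27 ± 0.26 (adjusted p = 0.445) and the 2 groups overlapped. The deleted exons are not given in the sources used here, and counts over the whole gene include any transcript that lacks them.

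Culture and tissue differed broadly in the absence of Eed. Of the 14009 genes tested, 5129 (36.6%) were called, of which 2869 (20.5%) were higher in Eed KO crypts and 2260 (16.1%) were lower, and 6429 had an unadjusted p under 0.05. The median log2 difference over all genes was 0.028. The same contrast in WT called 4496 genes (32.1%), with 2856 higher (20.4%) and 1640 lower (11.7%) genes. Of the 2869 genes higher in Eed KO crypts, 1712 were also called higher in WT crypts, 54 were called lower there and 1103 were not called. Of the 2260 lower genes, 886 were called lower in WT as well, 85 were called higher and 1289 were not called. A test of the difference between the 2 contrasts, the interaction of genotype and source, called 1299 genes (9.27%), 380 with a more positive (2.71%) and 919 with a more negative (6.56%) difference in Eed KO. Without Eed KO organoid 1 the number of genes higher in Eed KO crypts was 1853. The median absolute log2 difference between libraries was 0.312 between the 2 Eed KO crypts, 0.211 between the 2 Eed KO organoids and 0.444 to 0.549 between crypts and organoids.

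**Figure D1:**
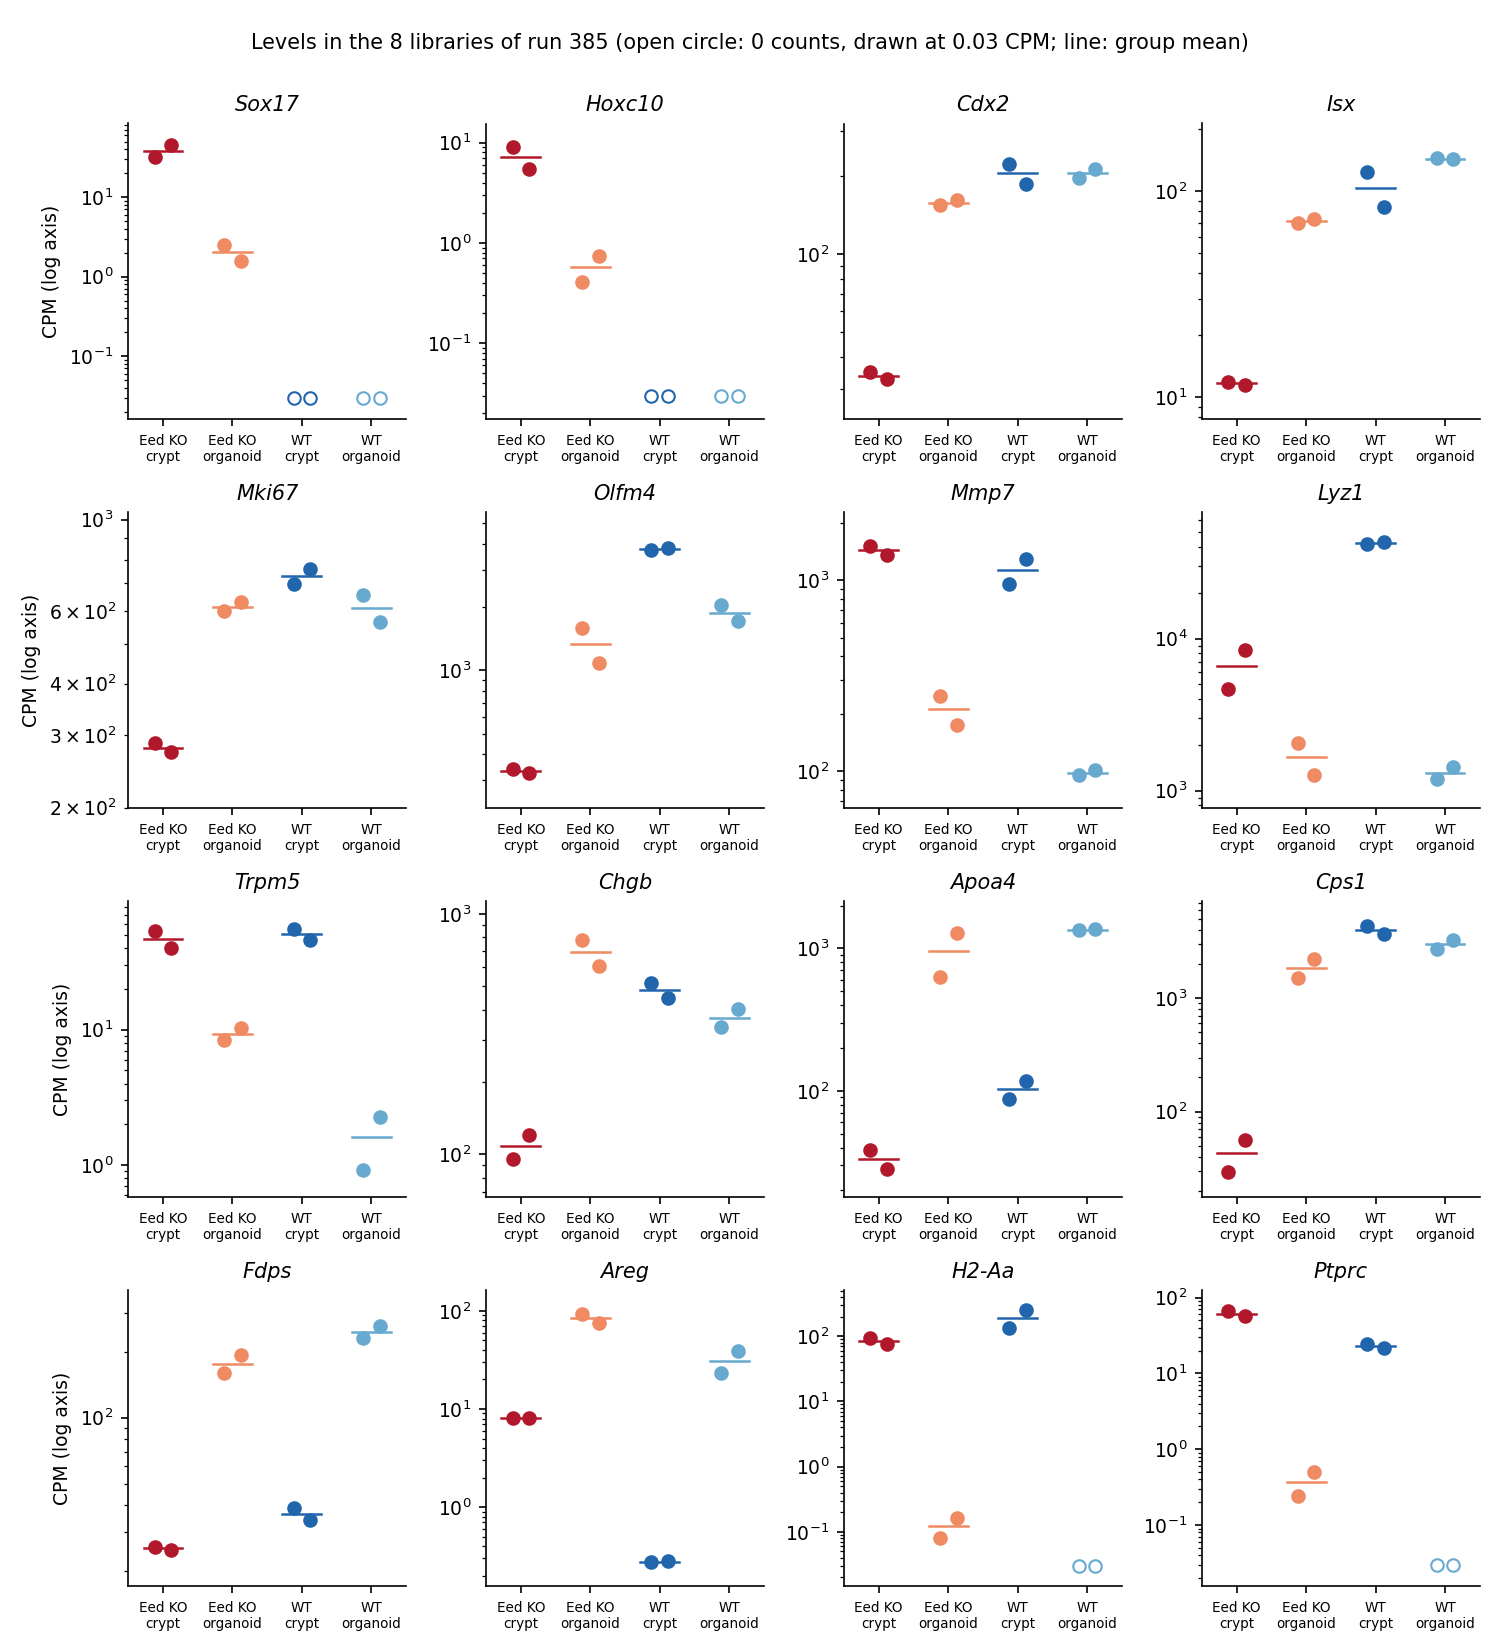
CPM on a log axis of 16 genes in the 8 libraries of run 385, with 1 point per library, colours for the 4 groups and open circles for libraries with 0 counts. Sox17, Hoxc10, Mmp7, Lyz1, Trpm5, H2-Aa and Ptprc lie higher in Eed KO crypts than in Eed KO organoids, and Cdx2, Isx, Mki67, Olfm4, Chgb, Apoa4, Cps1, Fdps and Areg lie lower.

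Cells other than epithelium separated the preparations first. All 25 tested markers of T cells and intraepithelial lymphocytes and all 18 of B and plasma cells were higher in Eed KO crypts. Of 30 for myeloid, mast and other leukocytes, 26 were higher (86.7%), and no marker of these lists was lower. Over all genes, 20.5% were higher and 16.1% lower. The B and plasma cell list summed to 797 and 1039.6 CPM in the Eed KO crypts and to 3.51 and 4.62 CPM in the Eed KO organoids. For T cells the sums were 129 and 84.7 against 3.35 and 2.72 CPM. Igha, the heavy chain of immunoglobulin A, was at 339 and 461 CPM in the crypts and had 0 counts in both organoids, which made it at least 3227-fold higher against a floor of 3 counts over the group. Jchain, which joins immunoglobulin A into dimers, was at 81.6 and 172 CPM against 0 counts, at least 1014-fold higher. Both genes were present in the crypts alone, and the same held for Cd3e of the T cell receptor complex, with 5.54 and 3.32 CPM and at least 36.3-fold. Ptprc, the pan-leukocyte surface protein CD45, was at 65.7 and 57.3 CPM in the crypts and at 0.245 and 0.495 CPM in the organoids, a log2 difference of 7.34 ± 0.31 (adjusted p = 2.6e-06). WT crypts held less of the same markers, with 174 and 232 CPM for B and plasma cells and 60.7 and 55.4 CPM for T cells. In such bulk samples, fewer cells of a type and less RNA per cell cannot be told apart.

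Connective tissue, muscle and vessel genes were higher in 18 of 26 tested cases (69.2%) and lower in 3 (11.5%), beside 20.5% and 16.1% of all genes. Their summed levels were 325 and 499 CPM in Eed KO crypts and 178 and 145 CPM in Eed KO organoids. Dcn, the matrix proteoglycan decorin, was at 96.5 and 182 CPM in the crypts and had 1 count in the 2 organoids together, a ratio of 3353-fold (95% counting interval 601 to 132480). Col1a1, a chain of type I collagen, was at 4.495 and 9.16 CPM against 0.0817 and 0.3298 CPM (log2 difference 4.98 ± 0.74, adjusted p = 0.00067). Pecam1 of the endothelium was at 3.93 and 6.11 CPM against 0.409 and 0.3298 CPM. Eed KO crypt 2 was the higher of the 2 crypt libraries for all 3 genes. Against this, the matrix glycoprotein gene Fbln1 was lower in the crypts, at 18.9 and 9.69 CPM against 83.3 and 83.1 CPM (-2.53 ± 0.26). Epithelial genes were plentiful in both sources. Epcam was at 779.5 and 821 CPM in Eed KO crypts and at 1042 and 1089 CPM in Eed KO organoids (adjusted p = 0.053), and of the 6 general epithelial markers examined, Krt8 and Cdh1 were lower in crypts and Epcam, Krt18, Krt19 and Cldn7 did not pass the threshold. The immune and stromal markers moved with the contrast between crypts and organoids throughout, and their part in the differences described below was not tested.

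**Figure D2:**
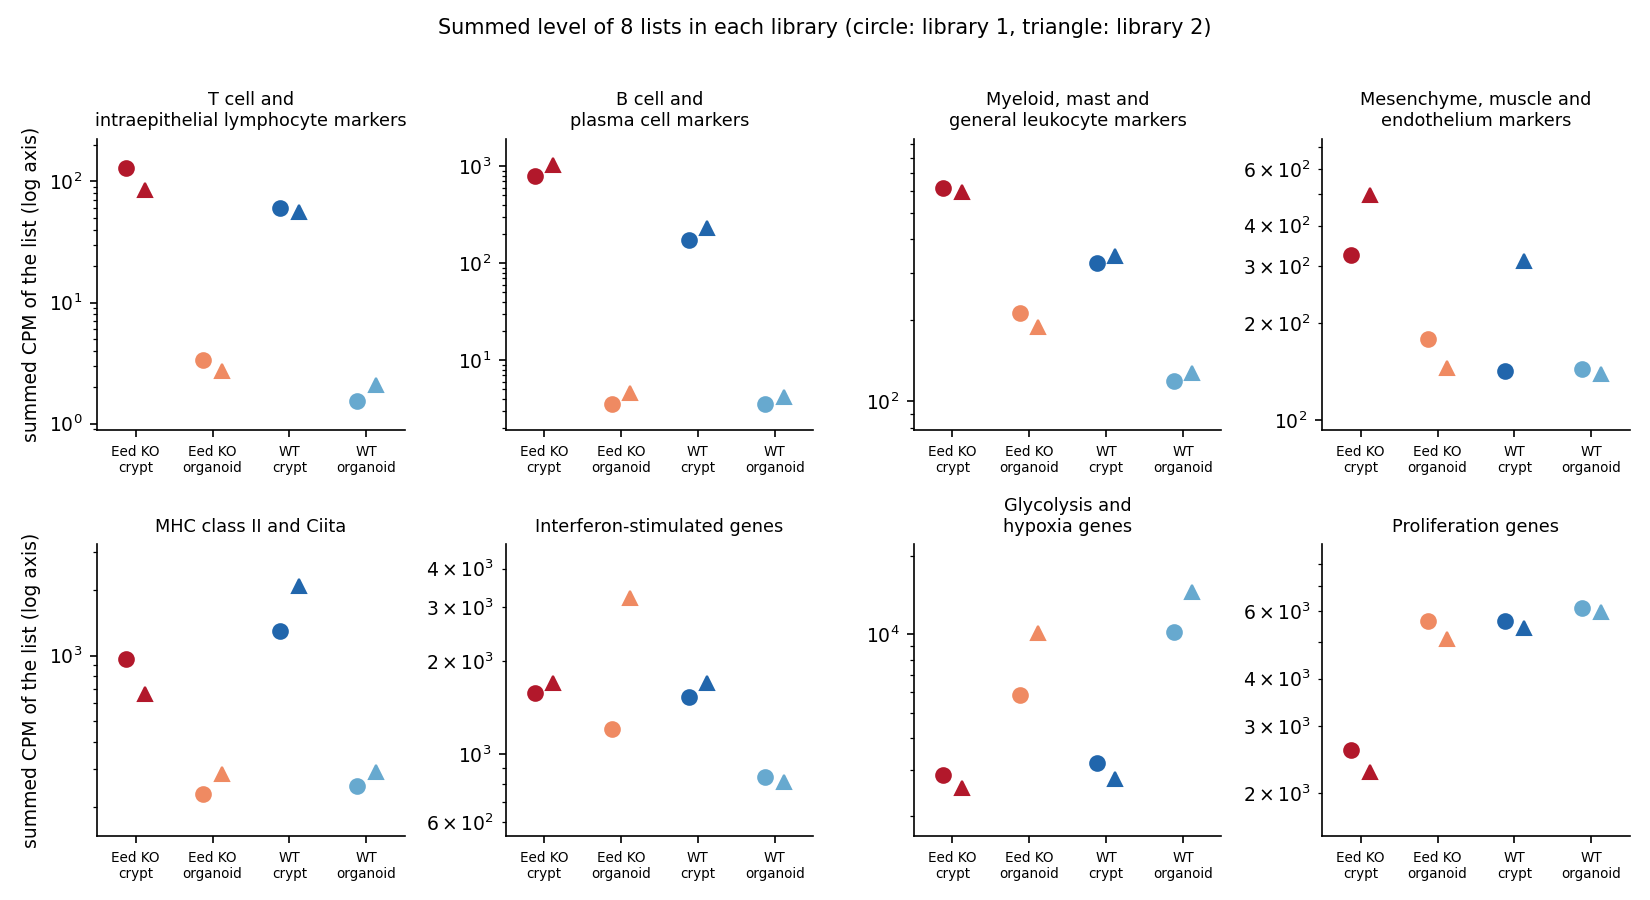
Summed CPM of 8 gene lists in each of the 8 libraries of run 385, on log axes, with 1 point per library and colours for the 4 groups. The T cell, B and plasma cell and class II lists stand higher in both Eed KO crypts than in both Eed KO organoids. The gap is the smallest of the 3 for the class II list, whose organoid sums were mostly Ifi30 RNA. Interferon and hypoxia lists differ between the 2 Eed KO organoids.

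Of 11 tested PRC2 subunits, 1 was higher (9.09%) and 2 were lower (18.2%) in Eed KO crypts, beside 20.5% and 16.1% of all genes. Lower subunits numbered 4 without Eed KO crypt 1 and 3 without Eed KO organoid 2. Ezh2, the methyltransferase used in dividing cells, was at 53.5 and 54.7 CPM in the crypts and at 107 and 95.8 CPM in the organoids (log2 difference -0.90 ± 0.14, adjusted p = 0.00069). Suz12, a core subunit, was at 109 and 115 CPM against 182 and 174 CPM (-0.67 ± 0.13). Phf1, an accessory subunit that binds methylated lysine 36 of histone H3, was the higher one, at 31.5 and 32.8 CPM against 7.52 and 9.89 CPM (1.88 ± 0.22), and was higher in WT crypts too, by 1.41 ± 0.22. Ezh1, the methyltransferase of non-dividing cells, was at 56.1 and 50.7 CPM against 36.1 and 47.2 CPM (adjusted p = 0.12). Of 21 PRC1 subunits, 3 were higher (14.3%) and 2 lower (9.52%), with 1 to 3 lower when an Eed KO library was left out, among them Ring1, a ubiquitin ligase for histone H2A, at 33.4 and 33.95 against 18.9 and 20.3 CPM, and L3mbtl2, a subunit of a variant complex, at 29.2 and 23.4 against 40.7 and 46.01 CPM.

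Homeobox genes that PRC2 is known to silence were present in both Eed KO sources and stood higher in the crypts. Of 35 tested Hox genes, which set position along the body axis, 18 were higher in Eed KO crypts and none was lower, against 20.5% higher among all genes, and their median log2 difference was 0.97. Summed over the list, Hox RNA was at 484 and 524 CPM in Eed KO crypts and 271 and 230.4 CPM in Eed KO organoids, and at 8.099 and 13.2 CPM in WT crypts and 15.9 and 15.6 CPM in WT organoids. Hoxc10, a posterior gene of the C cluster (chr15:102966796-102971893), was at 8.99 and 5.41 CPM in the Eed KO crypts and at 0.409 and 0.742 CPM in the Eed KO organoids, and had 0 counts in all 4 WT libraries. Its log2 difference was 3.62 ± 0.52 (adjusted p = 0.0011). Its neighbour Hoxc8 was at 5.14 and 5.93 CPM against 0.572 and 0.577 CPM (3.24 ± 0.57) and Hoxc11 at 8.35 and 10.6 CPM against 1.23 and 2.97 CPM (2.17 ± 0.47). For all 3 genes both crypts lay above both organoids. Hoxb13, the last gene of the B cluster, was at 52.3 and 53.2 CPM in the crypts and at 12.4 and 24.2 CPM in the organoids (1.53 ± 0.31), and was past the threshold except without Eed KO crypt 2 (adjusted p = 0.0589). The count of 18 fell to 6 without Eed KO crypt 2, to 9 without Eed KO organoid 1 and to 8 without Eed KO organoid 2.

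**Figure D3:**
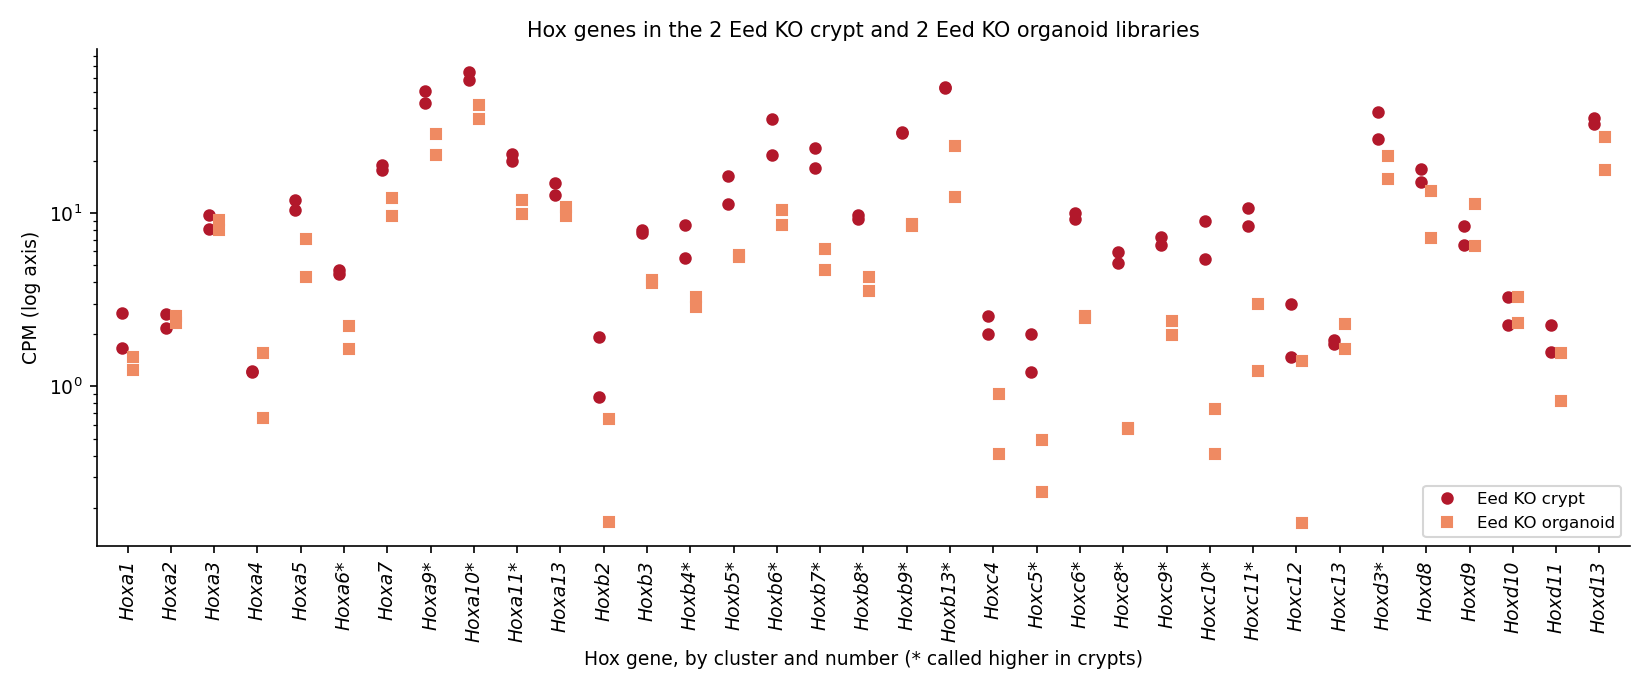
CPM on a log axis of the 35 tested Hox genes in the 2 Eed KO crypts (circles) and the 2 Eed KO organoids (squares), with 1 point per library and an asterisk on the 18 genes called higher. Both crypts lie above both organoids for each of the 18.

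Other developmental regulators followed the same order. Among 82 tested transcription factors of other tissues, 53 were higher in Eed KO crypts (64.6%) and 4 lower (4.88%), beside 20.5% and 16.1% of all genes. The list summed to 1248 and 1024 CPM in Eed KO crypts, 546 and 494 CPM in Eed KO organoids and 186 to 241 CPM in the 4 WT libraries. Sox17 (chr1:4490928-4496413), a factor of endoderm and vessels, was at 31.8 and 45.04 CPM in Eed KO crypts and at 2.53 and 1.57 CPM in Eed KO organoids, and had 0 counts in the WT libraries of both sources (log2 difference 4.22 ± 0.34, adjusted p = 7.7e-05). Tlx1, needed to form the spleen, was at 13.6 and 10.5 CPM against 0.409 and 0.3298 CPM (4.99 ± 0.46). Tlx1 had no count in any WT library. Prrx1, a factor of limb and craniofacial mesenchyme, went the other way, at 0.803 and 0.436 CPM against 5.39 and 6.02 CPM (-3.17 ± 0.41), and was lower in WT crypts too, by -4.45 ± 0.40. Some members of the list are expressed in stroma or leukocytes, such as Wt1, at 7.87 and 11.7 CPM against 0.245 and 0.165 CPM in Eed KO and 1.09 and 8.74 CPM in WT crypts, and its call was lost without Eed KO organoid 1 (adjusted p = 0.0532) and without Eed KO organoid 2 (adjusted p = 0.0554). Of the 53 higher genes, 29 kept their call without Eed KO crypt 1, 34 without Eed KO organoid 1 and 26 without Eed KO organoid 2, and of the 4 lower genes 2 did so without Eed KO crypt 1 and 2 without Eed KO organoid 2.

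Cdkn2a, which encodes the cell cycle inhibitors p16Ink4a and p19Arf and is a classic PRC2 target, was at 53.9 and 62.6 CPM in Eed KO crypts and at 55.6 and 47.2 CPM in Eed KO organoids. These groups overlapped (log2 difference 0.18 ± 0.19, adjusted p = 0.484), and the WT libraries held 0 to 0.694 CPM. Cdkn1a, which encodes the inhibitor p21, was at 302 and 203 CPM against 253 and 274 CPM (-0.06 ± 0.21, adjusted p = 0.844), with 39.8 and 34.98 CPM in WT crypts and 124 and 170.1 CPM in WT organoids. Igf2, a fetal growth factor, was at 79.95 and 54.2 CPM against 77.5 and 83.9 CPM (-0.27 ± 0.23, adjusted p = 0.402), and at no more than 1.82 CPM in WT. Each of these 3 genes lay higher in all 4 Eed KO libraries than in all 4 WT libraries, and none passed the threshold between Eed KO tissue and culture. Cdkn2b, beside Cdkn2a in the genome and encoding p15Ink4b, was lower in Eed KO crypts, at 15.9 and 16.3 CPM against 34.7 and 34.5 CPM (-1.10 ± 0.23), and lower in WT crypts by -1.21 ± 0.23.

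Factors that give the epithelium its intestinal identity were lower in Eed KO crypts. Of 23 tested, 13 were lower and 1 was higher, against 16.1% lower among all genes, and the list summed to 1582 and 1342 CPM in the crypts and 2523 and 2989 CPM in the organoids. Cdx2 (chr5:147300805-147307270), the homeobox factor that specifies intestine, was at 34.8 and 32.6 CPM in Eed KO crypts and at 155 and 161 CPM in Eed KO organoids. Its log2 difference was -2.23 ± 0.15 (adjusted p = 1.5e-05), while WT crypts had 224 and 187 CPM and WT organoids 197 and 214 CPM, and the interaction was -2.23 ± 0.21 (adjusted p = 0.0002). Isx, a homeobox factor that limits vitamin A uptake, was at 11.9 and 11.5 CPM against 70.03 and 73.1 CPM (-2.61 ± 0.20), with an interaction of -2.14 ± 0.27 (adjusted p = 0.0011). For both genes the Eed KO crypts were the lowest of the 4 groups. Hnf4g, a nuclear receptor of the enterocyte programme, was at 28.2 and 44.9 CPM against 215 and 229 CPM (-2.60 ± 0.26) and was lower in WT crypts too, by -1.53 ± 0.24. Creb3l3, a regulator of lipid genes, was at 3.53 and 4.800 CPM against 72.6 and 81.6 CPM (-4.21 ± 0.37). Gata4, a factor of proximal small intestine, was at 72.5 and 40.9 CPM against 126 and 153 CPM (-1.30 ± 0.26). Over the list, the interaction was called negative for 8 genes and positive for 3.

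Cell division genes were lower in Eed KO crypts almost throughout. Of 49 tested, 46 were lower (93.9%) and none was higher, beside 16.1% and 20.5% of all genes. Their median log2 difference was -1.14. The sums were 2600 and 2274 CPM in Eed KO crypts, 5655 and 5081 CPM in Eed KO organoids, 5677 and 5422 CPM in WT crypts and 6117 and 5964 CPM in WT organoids, so the Eed KO crypts lay below the other 3 groups. Mki67, the marker of cycling cells, was at 287 and 273 CPM in Eed KO crypts and 599 and 630.3 CPM in Eed KO organoids (-1.14 ± 0.16, adjusted p = 0.00043), and its interaction was -1.39 ± 0.22 (adjusted p = 0.0036). Plk1, a mitotic kinase, was at 34.9 and 19.4 CPM against 87.9 and 96.5 CPM (-1.76 ± 0.24). Ccnb1, the mitotic cyclin B1, was at 22.5 and 24.7 CPM against 79.1 and 61.3 CPM (-1.57 ± 0.17), and Mybl2, a factor that switches on mitotic genes, at 17.9 and 10.2 CPM against 43.4 and 45.5 CPM (-1.66 ± 0.23). In WT, 3 of the 49 genes were lower in crypts and none was higher, and the interaction was called negative for 26 and positive for none. When each Eed KO library was left out in turn, 39 to 46 of the genes were called lower.

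Among 35 genes of crypt base stem cells, 14 were lower (40%) and 6 higher (17.1%) in Eed KO crypts, beside 16.1% and 20.5% of all genes. Olfm4 (chr14:80000302-80021930), a secreted marker of these cells, was at 338 and 325 CPM in Eed KO crypts and at 1591 and 1089.9 CPM in Eed KO organoids (-2.02 ± 0.21, adjusted p = 9.3e-05). In WT the order was opposite, with 3754 and 3833 CPM in crypts and 2043 and 1717 CPM in organoids, and the interaction was -3.03 ± 0.29 (adjusted p = 0.00023). Pdgfa, a growth factor for the surrounding mesenchyme, was at 15.9 and 16.1 CPM against 116 and 83.9 CPM (-2.64 ± 0.22). Lgr5, the R-spondin receptor of these stem cells, was at 59.5 and 40.5 CPM against 127 and 199 CPM (-1.71 ± 0.33), a call lost without Eed KO crypt 2 (adjusted p = 0.0713). Prom1, a membrane protein of crypt cells, was among the higher ones, at 615 and 573 CPM against 261 and 224 CPM (1.29 ± 0.19). The list was not stable to single libraries, with 8 genes lower without Eed KO organoid 1 and 2 higher without Eed KO organoid 2. In WT, 11 of the 35 were higher in crypts and 2 lower, and the interaction was called negative for 12 and positive for none.

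Wnt and Notch genes did not move as blocks. Of 23 Wnt targets, 7 were higher (30.4%) and 5 lower (21.7%), beside 20.5% and 16.1% of all genes. Notum, a secreted enzyme that inactivates Wnt ligands, was at 15.7 and 11.1 CPM in Eed KO crypts and 0.899 and 0.989 CPM in Eed KO organoids (3.81 ± 0.49), and Apcdd1, a membrane inhibitor of Wnt, was at 2.73 and 1.66 CPM against 15.4 and 11.3 CPM (-2.59 ± 0.34). Axin2, the negative feedback gene of the pathway, was lower in Eed KO crypts by -0.81 ± 0.22, a call lost without Eed KO organoid 1 (adjusted p = 0.0888). The count of 5 lower targets became 9 without Eed KO crypt 1, 2 without Eed KO crypt 2, 2 without Eed KO organoid 1 and 3 without Eed KO organoid 2. Of 24 Notch pathway genes, 10 were higher (41.7%) and 2 lower (8.33%). Notch4, a receptor known from endothelium, was at 37.7 and 19.9 CPM against 2.62 and 4.29 CPM (3.06 ± 0.42), and Dtx1, a Notch regulator also expressed in lymphocytes, at 9.47 and 4.97 CPM against 0.0817 and 0.247 CPM (5.37 ± 0.65). Both were called higher in WT crypts as well. Between Eed KO crypts and organoids they went the same way as the endothelial and lymphocyte markers given above. Within the Eed KO crypts, Dtx1 and the T cell gene Cd3e were both higher in crypt 1. Notch4 was also higher in crypt 1, whereas Pecam1 of the endothelium was higher in crypt 2, at 6.11 against 3.93 CPM. The part of such cells in this result was not tested.

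Secretory lineages did not share 1 direction. Paneth cells, which secrete antimicrobial proteins beside the stem cells, had 17 of 28 tested genes higher (60.7%) and 2 lower (7.14%) in Eed KO crypts. Over all genes these shares were 20.5% and 16.1%. The lysozyme gene Lyz1 (chr10:117287796-117292868) was at 4662 and 8461 CPM in Eed KO crypts and 2055 and 1273 CPM in Eed KO organoids (1.98 ± 0.31, adjusted p = 0.001). In WT it was at 41617 and 43496 CPM in crypts and 1192 and 1434 CPM in organoids, and the interaction was -3.04 ± 0.44 (adjusted p = 0.0025). Mmp7, the protease that matures defensins, was at 1516 and 1355 CPM against 248 and 174 CPM (2.77 ± 0.23), and Mptx2, a pentraxin of Paneth cells, at 327 and 908 CPM against 56.4 and 47.99 CPM (3.56 ± 0.47). Ang4, an antimicrobial ribonuclease, did not pass the threshold, at 268 and 420 against 381 and 274 CPM. All 9 tested alpha-defensins were higher, with a median log2 difference of 2.98 and sums of 12902 and 17624 CPM in crypts and 3973 and 2942 CPM in organoids. The defensin gene AY761184 was at 576 and 917 CPM against 81.96 and 39.3 CPM (3.62 ± 0.38). Values of single defensins are uncertain, since reads of near-identical copies can be split or dropped by counting. In WT crypts the defensins summed to 29020.4 and 26109 CPM and in WT organoids to 1235 and 1339 CPM, and the interaction was called negative for 6 of the 9.

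Goblet cells, which make mucus, had 19 of 31 tested genes higher in Eed KO crypts (61.3%) and 2 lower (6.45%), beside 20.5% and 16.1% of all genes. In WT, 25 of the 31 were higher in crypts and 1 was lower. The median log2 difference was 1.12 in Eed KO and 1.67 in WT, and the interaction was called negative for 11 genes and positive for 1. Muc2, the gel-forming mucin, was at 765 and 787 CPM in the crypts and 139 and 286 CPM in the organoids (1.87 ± 0.33, adjusted p = 0.0025). Spink4, a protease inhibitor of goblet cells, was at 3544 and 4298 CPM against 749.9 and 835 CPM (2.31 ± 0.20), and Muc1, a transmembrane mucin, at 73.05 and 36.05 CPM against 1.72 and 3.88 CPM (4.28 ± 0.47). Muc1 was scarcely present in WT, at no more than 0.282 CPM. Best2, an anion channel known from goblet cells of the colon, was at 10.8 and 9.34 CPM in the crypts and had 2 counts in the organoids, a ratio of 123-fold (95% counting interval 33.8 to 1024). Tff3, the trefoil peptide of goblet cells, overlapped between the groups, at 683 and 814 CPM against 773 and 860.1 CPM (adjusted p = 0.595).

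Tuft cells, chemosensory cells that start type 2 immune responses, had 25 of 31 tested genes higher (80.6%) and none lower. Over all genes these shares were 20.5% and 16.1%. The list summed to 832 and 641 CPM in Eed KO crypts and 275 and 231 CPM in Eed KO organoids. Trpm5 (chr7:143069153-143094642), their taste transduction channel, was at 53.5 and 40.2 CPM against 8.34 and 10.2 CPM (2.34 ± 0.28, adjusted p = 0.00019). Dclk1, the kinase most used as their marker, was at 56.5 and 33.8 CPM against 9.398 and 8.49 CPM (2.34 ± 0.44). In WT organoids Trpm5 was at 0.925 and 2.28 CPM and Dclk1 at 0.539 and 2.55 CPM, below both Eed KO organoids for either gene, while WT crypts had 55.6 and 45.6 CPM and 78.3 and 50.2 CPM. The interaction of Trpm5 was -2.66 ± 0.43 (adjusted p = 0.0044), and it was called negative for 14 genes of the list and positive for none. Plcb2, the phospholipase of the taste cascade, was at 20.1 and 13.7 CPM against 0.981 and 1.15 CPM (3.97 ± 0.34), and Lrmp, an endoplasmic reticulum protein of taste-like cells also found in lymphocytes, at 28.8 and 36.3 CPM against 2.78 and 2.72 CPM (3.56 ± 0.24). Some genes of the list, such as Lrmp and Fyb, are also expressed by leukocytes, whose part in their values was not tested. When each Eed KO library was left out in turn, 20 to 24 tuft genes were called higher.

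Enteroendocrine cells secrete hormones. Of 22 tested hormones and granins, 11 were lower (50%) and 4 higher (18.2%) in Eed KO crypts, beside 16.1% and 20.5% of all genes. Their median log2 difference was -1.12. Their summed level did not follow that median, at 2264 and 2358 CPM in Eed KO crypts and 2186 and 1758 CPM in Eed KO organoids. Chgb (chr2:132781278-132795079), a granin of secretory vesicles, was at 95.8 and 120.3 CPM in the crypts and 783 and 609.6 CPM in the organoids (-2.69 ± 0.20, adjusted p = 2e-05). Gip, the insulin-releasing hormone of K cells, was at 12.4 and 30.98 CPM against 136 and 153 CPM (-2.74 ± 0.37), and Nts, neurotensin, at 0.241 and 0.436 CPM against 10.8 and 7.83 CPM (-4.75 ± 0.52). The interaction was negative for each, with -3.07 ± 0.28 for Chgb, -4.04 ± 0.51 for Gip and -6.68 ± 0.67 for Nts. Secretin, encoded by Sct, was higher in the crypts instead, at 159 and 173 CPM against 24.4 and 20.6 CPM (2.88 ± 0.16). Iapp, the islet peptide amylin, was at 15.8 and 29.1 CPM against 4.903 and 6.93 CPM (1.92 ± 0.39), and at no more than 0.47 CPM in WT. Of 20 factors of this lineage, 9 were lower (45%) and 3 higher (15%), beside the same 16.1% and 20.5%. Fewer were called lower without Eed KO crypt 1, without Eed KO organoid 1 or without Eed KO organoid 2. The count of 3 higher factors became 1 without Eed KO crypt 1 and 0 without Eed KO organoid 2. Neurog3, the factor that starts the lineage, was at 3.13 and 1.92 CPM against 21.00 and 13.5 CPM (-2.76 ± 0.32), and Insm1, which acts after it, at 4.495 and 2.97 CPM against 15.3 and 12.04 CPM (-1.87 ± 0.28). Chga was not past the threshold, at 89.3 and 101 CPM against 149 and 113 CPM (adjusted p = 0.0667).

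**Figure D4:**
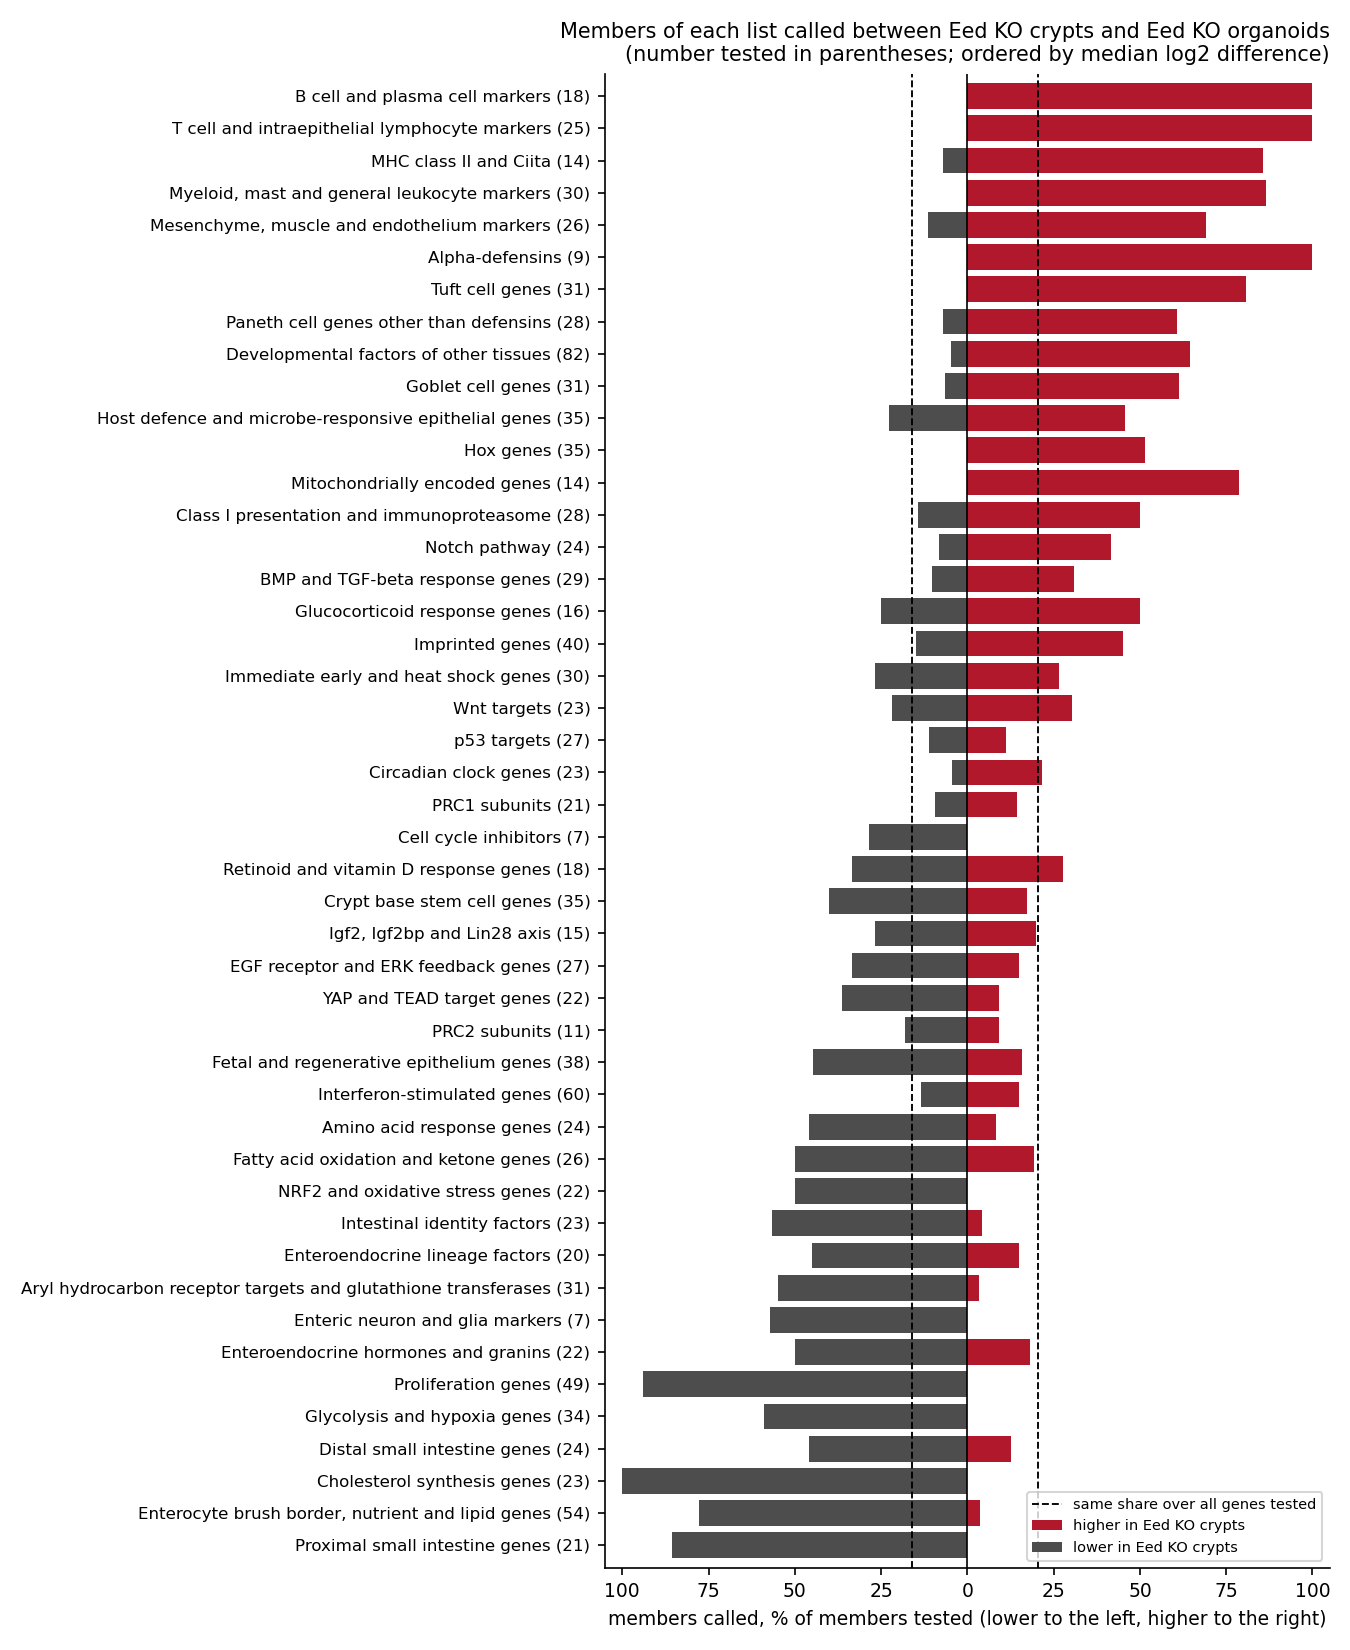
Share of tested members called higher (to the right) or lower (to the left) in Eed KO crypts than in Eed KO organoids, in percent, for gene lists with at least 7 tested members. Dashed lines mark the shares over all genes, 20.5% higher and 16.1% lower, and the T cell, B cell and defensin lists reach the right edge while cholesterol synthesis and proliferation genes lie far to the left.

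Genes of absorptive enterocytes were far lower in Eed KO crypts, from which villi had been removed. Of 54 tested brush border, nutrient and lipid genes, 42 were lower (77.8%) and 2 higher (3.7%), beside 16.1% and 20.5% of all genes. Their median log2 difference was -2.66. Their sums were 5191 and 4709 CPM in crypts and 20092 and 21990.2 CPM in organoids. Apoa4, an apolipoprotein of chylomicrons, was at 38.1 and 28.3 CPM in Eed KO crypts and 632 and 1281 CPM in Eed KO organoids (-4.85 ± 0.36, adjusted p = 3e-05). Alpi, the intestinal alkaline phosphatase, was at 3.85 and 7.59 CPM against 167 and 181 CPM (-4.93 ± 0.39), and Treh, which splits trehalose, at 0.642 and 0.611 CPM against 62.2 and 49.97 CPM (-6.46 ± 0.36). In WT, 30 of the 54 were lower in crypts and 3 higher, and 28 were called lower in both genotypes. Sis, sucrase-isomaltase, was at 15.7 and 138 CPM against 1991 and 2006 CPM (-4.70 ± 1.07), a call lost without Eed KO organoid 1 (adjusted p = 0.0657) and without Eed KO organoid 2 (adjusted p = 0.062).

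For some absorptive genes the difference between tissue and culture was itself different between Eed KO and WT. Cps1 (chr1:67123026-67231259), the first enzyme of citrulline and urea synthesis, was at 29.3 and 56.4 CPM in Eed KO crypts and 1522 and 2212 CPM in Eed KO organoids (-5.45 ± 0.36, adjusted p = 1.5e-05). In WT it was at 4304 and 3656 CPM in crypts and 2743 and 3272 CPM in organoids (0.40 ± 0.29), and the interaction was -5.85 ± 0.45 (adjusted p = 7e-05). Lct, the lactase of proximal intestine, was at 1.36 and 0.349 CPM against 118 and 111 CPM in Eed KO and at 48.7 and 18.6 CPM against 26.4 and 14.4 CPM in WT, with an interaction of -7.73 ± 0.86 (adjusted p = 0.0022). Enpep, a brush border aminopeptidase, was at 3.53 and 5.85 CPM against 344 and 261 CPM (-6.02 ± 0.47), and its interaction was -4.98 ± 0.57 (adjusted p = 0.0019). Clca4b, a secreted epithelial protein, was at 7.22 and 6.02 CPM against 274 and 384 CPM (-5.63 ± 0.22), and its interaction was -5.06 ± 0.28 (adjusted p = 8.9e-06). For Cps1, Lct, Enpep and Clca4b the Eed KO crypts were the lowest of the 4 groups, and Clca4b was the only one of them also called lower in WT crypts, by -0.57 ± 0.18.

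Regional genes were lower in part. Of 21 genes of proximal small intestine, 18 were lower in Eed KO crypts (85.7%) and none was higher, beside 16.1% and 20.5% of all genes. Among the lower ones, Fabp1, a fatty acid carrier, was at 6.26 and 17.3 CPM against 585 and 691 CPM (-5.77 ± 0.73). Of 24 genes of distal small intestine, 11 were lower (45.8%) and 3 higher (12.5%). Cyp4f14, a fatty acid hydroxylase, was at 14.2 and 32.3 CPM against 332 and 356 CPM (-3.89 ± 0.41), whereas Guca2a, the hormone guanylin, was at 596 and 680.1 CPM against 207 and 189 CPM (1.69 ± 0.16). In WT the distal list had a median log2 difference of 0.74, against -1.77 in Eed KO, and the interaction was called negative for 12 genes and positive for 1. Among vitamin A genes, Rbp2, the retinol carrier of enterocytes, was at 9.31 and 24.1 CPM against 305 and 240.4 CPM (-4.03 ± 0.65) and Aldh1a1, which makes retinoic acid, at 32.99 and 41.7 CPM against 665 and 398 CPM (-3.83 ± 0.36).

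The 12 most raised protein-coding genes were largely genes of leukocytes and stroma, such as Ms4a1, the B cell surface protein CD20, at 17.1 and 21.1 CPM in Eed KO crypts against 0 counts in Eed KO organoids (at least 155-fold). Slc22a8, an organic anion transporter known from kidney and choroid plexus, was among them at 28.1 and 17.2 CPM against 0 counts, at least 186-fold higher, and WT libraries held no more than 0.094 CPM. The 12 most lowered genes included 4 cytochrome P450 genes. Cyp2c29, a drug-metabolising cytochrome P450, had 0 counts in both Eed KO crypts and was at 96.8 and 57.5 CPM in the Eed KO organoids, at least 616-fold lower in crypts. Slc5a4b, a sugar transporter family member, had 2 counts in the crypts and was at 99.8 and 54.8 CPM in the organoids, a ratio of 926-fold (95% counting interval 256 to 7648). Reg3a, an antimicrobial lectin, had 3 counts in the crypts and was at 87.1 and 72.1 CPM in the organoids, a ratio of 635-fold (95% counting interval 217 to 3080.4). Cyp3a11 and Cyp2b10, P450 enzymes induced by foreign compounds, were at 1.28 and 1.05 against 250.1 and 117 CPM and 0.321 and 0.786 against 59.2 and 53.3 CPM. All of these were lower in WT crypts as well. Afp, alpha-fetoprotein, was at 0.482 and 0.349 CPM against 53.4 and 32.9 CPM (-6.66 ± 0.41), with an interaction of -5.59 ± 0.50 (adjusted p = 0.00015).

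Targets of the aryl hydrocarbon receptor, the sensor that bNF activates, and glutathione transferases were lower in Eed KO crypts in 17 of 31 cases (54.8%). Only 1 was higher (3.23%), and over all genes 16.1% were lower and 20.5% higher. Gsta2, a glutathione transferase, was at 0.161 and 0.436 CPM in the crypts and 13.3 and 11.05 CPM in the organoids (-5.32 ± 0.46). Cyp1a1, the classic target, was at 0.401 and 15.4 CPM against 776 and 738 CPM (-6.60 ± 1.39, adjusted p = 0.0144), a call lost without Eed KO organoid 1 (adjusted p = 0.0714) and without Eed KO organoid 2 (adjusted p = 0.0642). The 2 crypts differed widely from each other in Cyp1a1, and both organoids lay far above them. In WT, 23 of the 31 were lower in crypts and none was higher, and Cyp1a1 was at 11.01 and 1.504 CPM against 978 and 1301 CPM.

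Every tested gene of cholesterol synthesis was lower in Eed KO crypts, 23 of 23, and the same 23 were lower in WT crypts. Over all genes, 16.1% were lower in Eed KO crypts and 11.7% in WT crypts. The median log2 difference was -2.15 in Eed KO and -2.03 in WT. Sums were 1454 and 1253 CPM in Eed KO crypts, 5048 and 6605 CPM in Eed KO organoids, 2135 and 1994 CPM in WT crypts and 8269 and 8869 CPM in WT organoids. Fdps (chr3:89093592-89101967), farnesyl diphosphate synthase, was at 25.8 and 24.96 CPM against 159 and 192 CPM (-2.79 ± 0.16, adjusted p = 6.1e-06). All 23 calls held with any Eed KO library left out. Of 34 genes of glycolysis and hypoxia, 20 were lower (58.8%) and none was higher, beside 16.1% and 20.5% of all genes. However, the 2 Eed KO organoids differed, with sums of 5862 and 10097 CPM against 2880 and 2564 CPM in the crypts. The count of 20 fell to 13 without Eed KO organoid 2 and to 9 without Eed KO crypt 2. Of 26 genes of fatty acid oxidation and ketone synthesis, 13 were lower (50%) and 5 higher (19.2%), the latter near the share of all genes. The number of higher ones was smaller without Eed KO organoid 1. Acaa1b, a peroxisomal thiolase of that list, was at 0.883 and 1.13 CPM against 11.2 and 17.6 CPM (-3.82 ± 0.33).

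**Figure D5:**
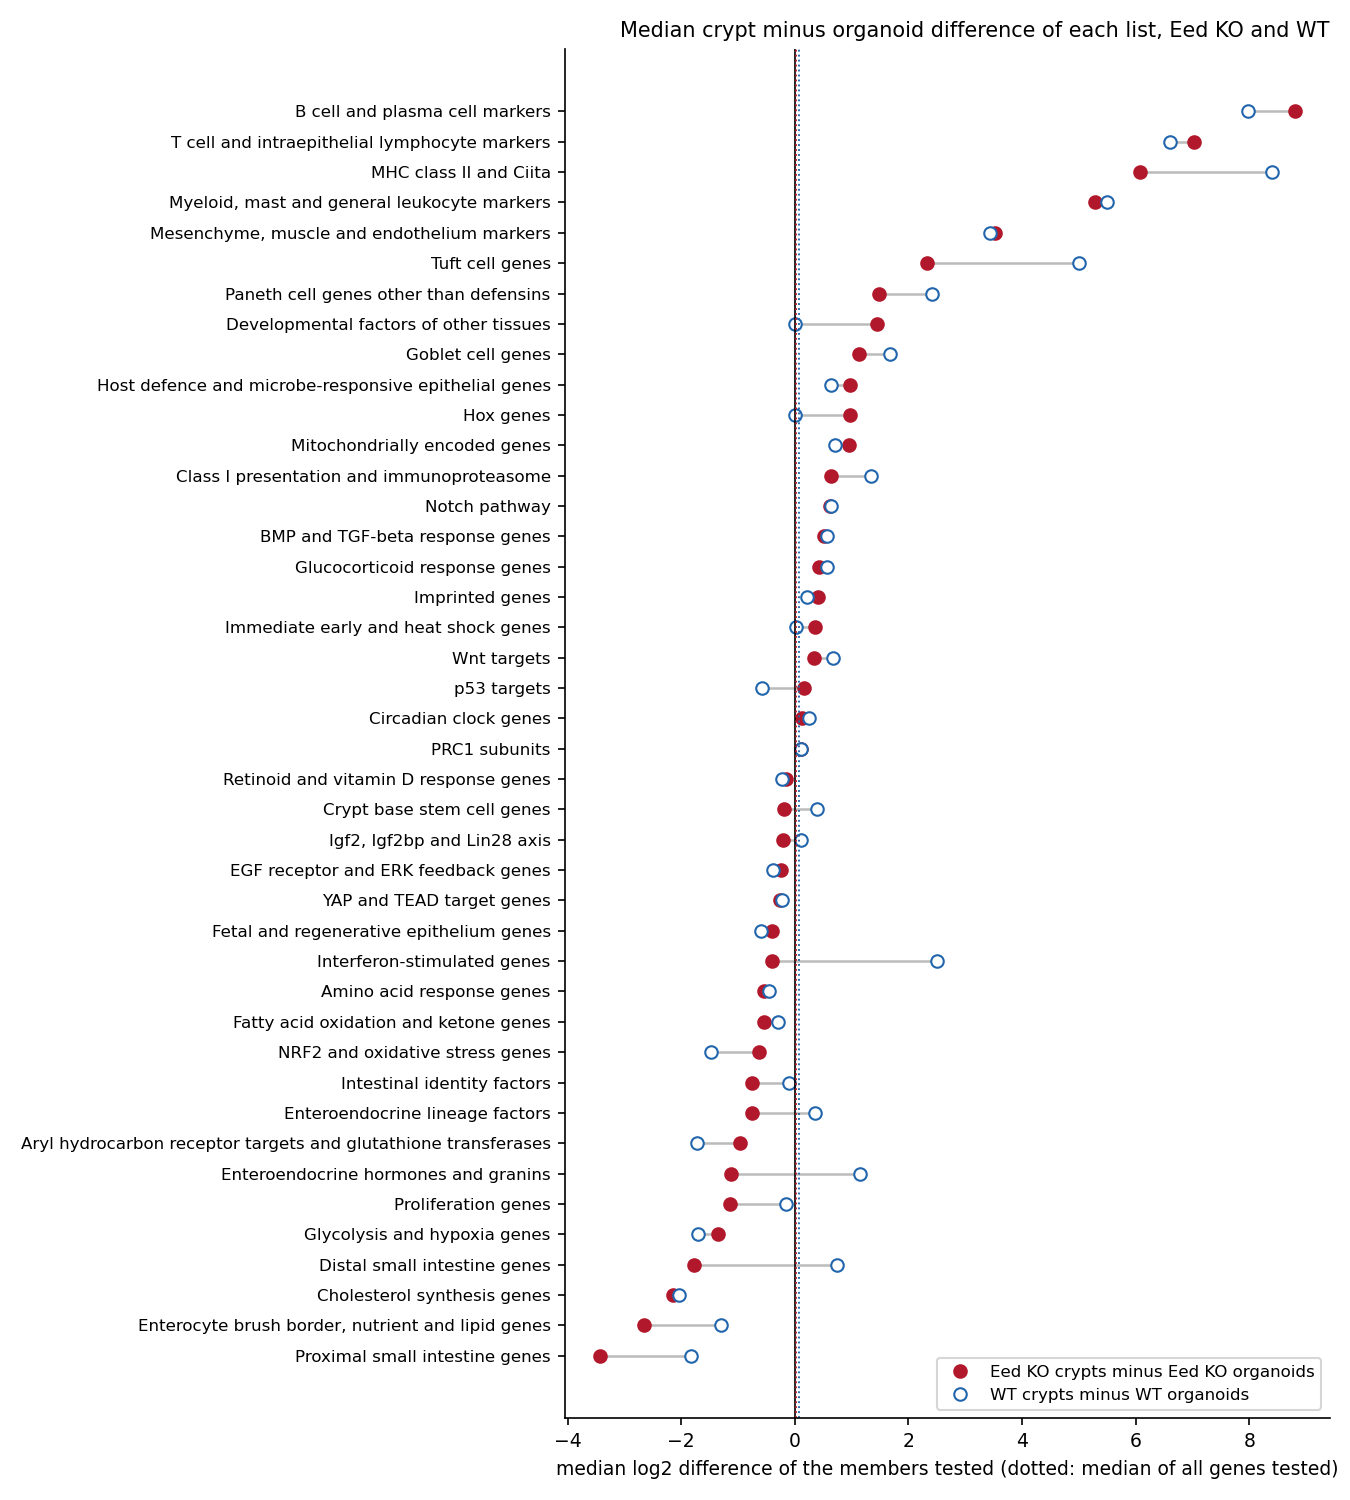
Median log2 difference of crypts minus organoids for gene lists with at least 14 tested members, in Eed KO and in WT, with 1 point each. Cholesterol synthesis lies at -2.15 in Eed KO and -2.03 in WT, whereas proliferation lies at -1.14 and -0.15 and Hox genes at 0.97 and 0.00.

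Genes for antigen presentation to helper T cells stood apart between the sources. The MHC class II list also held genes that are not class II chains, such as Ctss, Lgmn and Ifi30. Of its 14 tested genes, 12 were higher in Eed KO crypts (85.7%) and 1 was lower (7.14%), beside 20.5% and 16.1% of all genes. The list summed to 960 and 661 CPM in crypts and 228 and 283 CPM in organoids. H2-Aa (chr17:34282744-34287827), the alpha chain of I-A, was at 95.05 and 75.4 CPM in the crypts and had 3 counts in the organoids, a ratio of 696-fold (95% counting interval 238 to 3376). Cd74, the invariant chain, was at 352 and 178 CPM against 0.981 and 0.495 CPM (8.47 ± 0.57), and H2-Ab1, the beta chain, at 91.8 and 64.7 CPM against 0.735 and 2.89 CPM (5.43 ± 0.52). H2-Eb1, the beta chain of I-E and a gene chosen after its values were seen, was at 134 and 76.1 CPM against 0.899 and 0.247 CPM (7.49 ± 0.57). WT crypts had 486 and 832 CPM of Cd74 and WT organoids 0.0771 and 0 CPM. Ifi30, a lysosomal thiol reductase, was the lower one, at 87.6 and 86.7 CPM against 154 and 195 CPM (-1.01 ± 0.16). Most of the organoid sums of the list was therefore Ifi30 RNA. B cells, dendritic cells and stimulated epithelium can all make class II, and the leukocyte markers given above rose in the same libraries, so their part in this result was not tested. The 250 bases before the start site of RefSeq genes (GRCm38.p6) were searched on both strands for CTGATTGG. This is the core of the Y box that class II promoters are known for, and 4.43% of 27025 gene symbols had a match. The match was found in 4 of the 11 list members with a promoter sequence, all 4 among the 9 that were higher. As only 1 of the 11 was lower and 1 was not called, this split cannot tie the match to the call. The stretch of H2-Aa lies at chr17:34287847-34287894 on the minus strand and that of H2-Eb1 at chr17:34305785-34305832 on the plus strand. Both are shown 5′ to 3′ with the match in capitals, as examples of higher genes with a match.
H2-Aa: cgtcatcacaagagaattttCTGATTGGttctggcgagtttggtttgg
H2-Eb1: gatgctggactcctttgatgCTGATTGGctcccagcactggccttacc
A match describes these letters in this window and says nothing of binding.

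Interferon-stimulated genes were called at shares not far from those of all genes, and the 2 Eed KO organoids differed in them. Of 60 tested, 9 were higher (15%) and 8 lower (13.3%) in Eed KO crypts, beside 20.5% and 16.1% of all genes. In WT 31 were higher in crypts and none was lower, and the interaction was called negative for 14 and positive for none. The list summed to 1574 and 1698 CPM in Eed KO crypts and 1207 and 3202 CPM in Eed KO organoids, of which organoid 2 was the high one, and to 1527 and 1702 CPM in WT crypts and 839.9 and 812 CPM in WT organoids. The counts turned on single libraries, with 26 higher and 4 lower without Eed KO organoid 2, 4 higher and 30 lower without Eed KO organoid 1, 2 lower without Eed KO crypt 1 and 4 lower without Eed KO crypt 2. Gbp2, a guanylate-binding protein against intracellular microbes, was at 21.8 and 39.01 CPM in Eed KO crypts and 1.31 and 2.56 CPM in Eed KO organoids (3.97 ± 0.80), a call lost without Eed KO crypt 2 (adjusted p = 0.0765) and without Eed KO organoid 1 (adjusted p = 0.08). Cxcl10, a chemokine that draws T cells, was at 0.562 and 1.66 CPM against 9.07 and 9.15 CPM (-3.04 ± 0.52), with no more than 0.752 CPM in WT. Rsad2, the antiviral protein viperin, was at 2.17 and 3.49 CPM against 7.76 and 26.7 CPM, a log2 difference of -2.61 ± 0.56 that was -1.47 without Eed KO organoid 2. The interferon response element was searched as GAAA, any 2 bases and GAAA again on both strands of the same 250 bases before the start site. Of 27025 gene symbols, 3.46% had a match. The element was in 21 of the 38 list members with a promoter sequence (55.3%), 2 of 4 higher, 3 of 7 lower and 16 of 27 that were not called. One higher and 2 lower genes are shown 5′ to 3′ with the match in capitals, since genes with the same element moved in opposite directions: Gbp2 at chr3:142620584-142620633 on the plus strand, Cxcl10 at chr5:92349073-92349122 and Rsad2 at chr12:26456543-26456592, both on the minus strand.
Gbp2: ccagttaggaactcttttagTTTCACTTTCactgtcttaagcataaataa
Cxcl10: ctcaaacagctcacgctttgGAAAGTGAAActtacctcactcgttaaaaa
Rsad2: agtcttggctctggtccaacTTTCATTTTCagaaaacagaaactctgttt
In Gbp2 and Rsad2 the element lies on the opposite strand and so reads as its reverse complement.

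Class I presentation and the immunoproteasome had 14 of 28 tested genes higher (50%) and 4 lower (14.3%) in Eed KO crypts. Over all genes these shares were 20.5% and 16.1%. Psmb8, a catalytic subunit of the immunoproteasome, was at 50.4 and 38.9 CPM in crypts and 4.004 and 7.34 CPM in organoids (2.98 ± 0.42, adjusted p = 0.0012), and Nlrc5, the activator of class I genes, at 17.9 and 9.601 CPM against 1.14 and 2.97 CPM (2.74 ± 0.56). H2-Q1, a nonclassical class I gene with near-identical relatives, was lower, at 1.77 and 2.27 CPM against 13.5 and 22.01 CPM (-3.13 ± 0.32). The count of 14 higher genes became 9 without Eed KO crypt 1 and 6 without Eed KO organoid 1, and that of 4 lower genes became 2 without Eed KO crypt 1. Of 35 host defence genes, 16 were higher (45.7%) and 8 lower (22.9%), beside 20.5% and 16.1% of all genes. Fut2, which adds fucose to surface glycans in response to microbes, was at 62.5 and 57.8 CPM against 8.34 and 8.16 CPM (2.86 ± 0.43), with both crypts far above both organoids. Without Eed KO crypt 2 the count of 16 higher genes became 9.

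Of 27 genes of EGF receptor signalling and ERK feedback, 9 were lower (33.3%) and 4 higher (14.8%) in Eed KO crypts, beside 16.1% and 20.5% of all genes. Areg (chr5:91139615-91148432), a ligand of the EGF receptor, was at 8.03 and 8.12 CPM in the crypts and 93.5 and 74.9 CPM in the organoids (-3.38 ± 0.25, adjusted p = 2e-05), against 0.273 and 0.282 CPM and 23.4 and 38.6 CPM in WT, with an interaction of 3.37 ± 0.54 (adjusted p = 0.0038). Btc, another ligand, was at 13.4 and 19.4 CPM against 56.8 and 53.1 CPM (-1.75 ± 0.20), while the ligand Egf was higher in the crypts, at 25.8 and 21.4 CPM against 5.39 and 7.503 CPM (1.87 ± 0.28). Spry4, an inhibitor induced by ERK, was at 10.5 and 11.1 CPM against 3.43 and 2.72 CPM (1.81 ± 0.30), whereas in WT it was lower in crypts by -1.24 ± 0.35, and the interaction was 3.05 ± 0.46 (adjusted p = 0.0031). Without Eed KO crypt 2 there were 7 higher genes, and without Eed KO organoid 1 there were 5 lower ones.

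Of 29 genes of the BMP and TGF-beta response, 9 were higher (31%) and 3 lower (10.3%) in Eed KO crypts, beside 20.5% and 16.1% of all genes. Id1 and Id3, inhibitors of differentiation factors and direct BMP targets, were at 62.2 and 85.3 against 12.7 and 15.1 CPM (2.41 ± 0.21) and at 59.8 and 66.8 against 11.7 and 12.4 CPM (2.39 ± 0.24). Both were higher in WT crypts as well, by 1.92 ± 0.22 and 2.17 ± 0.25. The count of 9 higher genes became 5 without Eed KO organoid 1 and 4 without Eed KO organoid 2.

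Of 38 tested genes of fetal and regenerating epithelium, 17 were lower in Eed KO crypts (44.7%) and 6 were higher (15.8%), beside 16.1% and 20.5% of all genes. Anxa10, an annexin of gastric and fetal epithelium, was at 0.482 and 0.436 CPM in Eed KO crypts and 21.1 and 23.1 CPM in Eed KO organoids (-5.55 ± 0.37), and Sprr1a, a cornified envelope precursor induced on injury, at 0.963 and 0.262 CPM against 41.02 and 33.1 CPM (-5.87 ± 0.65). Il33, an alarmin of the interleukin-1 family, was at 128 and 101 CPM against 11.2 and 11.2 CPM (3.35 ± 0.23), above WT in both sources. Clu, a marker of revival stem cells, spread widely within both groups, at 1075 and 289 CPM against 675 and 289.6 CPM (adjusted p = 0.705), with no more than 29.3 CPM in WT. The count of 17 lower genes became 11 without Eed KO crypt 1, 9 without Eed KO crypt 2 and 8 without Eed KO organoid 1, and that of 6 higher genes became 3 without Eed KO crypt 1 or Eed KO organoid 1. Of 22 targets of YAP and TEAD, 8 were lower (36.4%) and 2 higher (9.09%), beside 16.1% and 20.5% of all genes. The count of lower targets was smaller without Eed KO crypt 2 or Eed KO organoid 1. Ccn2, the matricellular target, was at 7.305 and 2.18 CPM against 32.7 and 23.7 CPM (-2.56 ± 0.49).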

How the data were processed

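For each sequencing run the authors deposited 1 table of raw counts by gene, with Ensembl identifiers, positions and biotypes per the file headers. GRCm38, TopHat2 2.0.12, Bowtie 0.12.9, HTSeq and DESeq2 are named in the submitters' processing notes without their roles. TRIzol extraction preceded a strand-specific polyadenylated RNA kit, per the labels' protocols. No source used here states whether strand was used in counting, and overlapping genes on opposite strands cannot be told apart.

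The 8 libraries of run 385 were fitted together in 4 groups (4 residual degrees of freedom) in R 4.3.3 with edgeR 4.0.16 (quasi-likelihood test, robust dispersion, TMM factors). Genes under a minimum count of 10 or a total of 15 were filtered out by group, and p-values were adjusted by Benjamini-Hochberg with a threshold of 0.05. CPM was computed from the deposited counts. Each SE was derived from the test, as the absolute log2 difference divided by the square root of the F statistic. Folds against 0 counts used a floor of 3 counts over the group, and 1 to 3 counts were given an exact 95% counting interval, which covers counting error only. The pipeline was tested on simulated data. Replicate pairs differed beyond sampling noise and were kept as separate libraries.

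Genes named were the 12 most raised and 12 most lowered protein-coding genes called, with groups apart and at least 10 CPM in the higher group, up to 3 called members of each list in each direction with at least 5 CPM, and a fixed set. Some of these genes are not reported here. H2-Eb1 and the printed promoter stretches were chosen after their values were seen, and general markers of cell types were shown besides. The compared groups, the gene lists and the tests were chosen with earlier results of these data known. Alternatives were other normalisations and filters, DESeq2 1.42.0, a replicate block, the 4 Eed KO libraries alone, leaving out each library, and the Eed KO crypt of run 440 in place of those of run 385.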

Additional observations from a re-analysis of the deposited data

Results flagged for a closer look

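For 70 of the 244 named genes, the difference between crypts and organoids was itself different between Eed KO and WT by the interaction test (edgeR, adjusted p under 0.05), beside 9.27% of all genes. Most named genes were picked for large called differences between the same Eed KO libraries, so these shares cannot be compared. Of these 70, 44 kept that call without WT crypt 1 and 46 without WT organoid 1. Values below are the log2 difference in Eed KO minus that in WT. The sex pattern and strain label changed between genotypes as well as between sources, so their part cannot be told apart from that of Eed. Values of Dkk3, Nckap1l and Trpv6 rest on a group with no counts, and those of Cdkn2a, Nlrc5, Cxcl10, H2-Ab1, Reg3a, Gm14851, Plcb2, Areg, Fgf15, Acaa1b, Fn1, Fyb, Nts, Afp and Lrmp on a group with no more than 10, so they depend on the prior count of the fit.

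More negative values were found for absorptive and regional genes, with -7.73 for Lct, -5.85 for Cps1, -5.06 for Clca4b, -4.98 for Enpep, -2.82 for Treh, -4.96 for Reg3a, -5.59 for Afp, -5.28 for Fgf15 and -2.21 for Cyp4f14. Identity factors followed with -2.23 for Cdx2 and -2.14 for Isx, whereas Foxa2 had 1.00. Dividing and stem cell genes had -1.39 for Mki67, -1.37 for Plk1, -1.11 for Ccnb1, -0.72 for Ezh2, -1.47 for Hmga1, -3.03 for Olfm4, -1.79 for Pdgfa and -1.38 for Axin2. Other Wnt genes had -5.35 for Dkk3, -2.65 for Bambi and -4.10 for Apcdd1.

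Among secretory genes the values were -3.04 for Lyz1, -5.01 for Gm14851, -4.64 for AY761184, -2.12 for Muc2, -2.59 for Clca3b, -2.54 for Tpsg1 and -1.01 for Tff3. Enteroendocrine genes had -6.68 for Nts, -4.04 for Gip, -3.07 for Chgb, -2.38 for Chga, -2.10 for Neurog3 and -2.04 for Insm1, but 1.61 for Sct. Tuft genes had -2.66 for Trpm5, -3.08 for Dclk1, -2.48 for Plcb2, -2.52 for Lrmp and -2.42 for Fyb. Immune response genes had -5.86 for H2-Ab1, -5.39 for Cxcl10, -2.81 for Psmb8, -5.31 for Nlrc5 and -1.60 for H2-Q2.

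Other negative values were -4.12 for Fn1, -3.20 for Nefm, -1.24 for Erbb3, -1.09 for Klf6, -1.59 for Jun, -1.19 for Nr3c1, -3.06 for Cth, -1.82 for Igfbp4 and -1.05 for the p53 target Sesn1. More positive values were found for 2 of 7 cell cycle inhibitors, with 3.64 for Cdkn2a and 1.91 for Cdkn1a. The p53 target Psrc1 had 1.44. ERK pathway genes had 3.37 for Areg, 3.34 for Etv5, 3.05 for Spry4 and 2.04 for Etv4. Further positive values were 2.99 for Mt2, 2.31 for Acaa1b, 1.75 for Il33, 1.27 for Sgk1, 1.04 for Gstm5, 8.48 for Trpv6 and 6.21 for Nckap1l.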

How the results depend on the processing

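With each of the 8 libraries left out in turn, genes higher in Eed KO crypts numbered 1853 (without Eed KO organoid 1) to 2873 and lower ones 1525 to 2687, against 2869 and 2260. Genes called by the interaction numbered 735 to 1860 against 1299, with 735 and 803 without WT crypt 1 or 2 and 793 and 808 without WT organoid 1 or 2. The WT contrast gave 1599 to 2948 higher and 899 to 2357 lower genes, with 1620 and 899 without WT crypt 2 and 1599 and 961 without WT organoid 1. Other scalings and filters, DESeq2, the sex chromosomes kept, mitochondrial genes left out and the 4 Eed KO libraries alone kept these counts within 1.5 times. Of 233 named genes called, 168 stayed called under every left-out library.

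Deviations of same-numbered Eed KO crypts and organoids correlated at 0.012, and at -0.145 to 0.282 between other groups. These values rest on 2 libraries a group and cannot decide whether same-numbered samples were paired. With the replicate block, 2895 genes were higher and 2239 lower in Eed KO crypts, 1200 were called by the interaction, and WT gave 2788 higher and 1591 lower.

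With the Eed KO crypt of run 440 in place of the run 385 crypts, 2769 genes were higher and 2676 lower, which held 58.1% and 41.5% of the main calls. Some named genes lost their call without a change of sign. Of the named genes called with the run 385 crypts, 11 changed sign: Phc3 at -0.96, Guca2b at 0.36, Clca3b at 0.29, Tpsg1 at 0.35, Peg3 at -1.61, Lin28b at -1.09, H2-Q2 at 0.0417, mt-Co3 at -14.06, mt-Nd4 at -1.55, mt-Cytb at -0.63 and Ly6a at 0.30. In that library mt-Co3 had 10 counts, against 266306 and 294481 in the run 385 crypts. Run and annotation differ together there, and the cause of the other changes was not tested. At 2 libraries a group, genes with few counts limit what could be called.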

Other observations

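Imprinted genes, which are expressed from 1 parental allele, were higher in Eed KO crypts than in Eed KO organoids in 18 of 40 tested cases and lower in 6, against 20.5% and 16.1% of all genes. The counts became 11 higher without Eed KO organoid 1, and 1 lower without Eed KO crypt 2, 1 lower without Eed KO organoid 1 and 2 lower without Eed KO organoid 2. Meg3 and Rian, noncoding RNAs of the Dlk1 to Dio3 cluster, were at 15.3 and 31.8 CPM against 0.163 and 0.6596 CPM (5.80 ± 0.65, adjusted p = 0.00031) and at 7.79 and 23.6 CPM against 0.409 and 0.495 CPM (5.08 ± 0.78). Eed KO crypt 2 was the higher crypt library for both, as it was for the collagen gene Col1a1, at 4.495 and 9.16 CPM, and a part of stromal RNA in these values was not tested. Igfbp3, a carrier of insulin-like growth factors, was at 24.8 and 19.8 CPM against 0.817 and 1.15 CPM (4.49 ± 0.64). Ddc, the enzyme that makes dopamine and serotonin from their precursors, was lower, at 45.5 and 67.7 CPM against 136 and 126 CPM (-1.21 ± 0.23).

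Mt1 and Mt2, metallothioneins that bind zinc, were lower in Eed KO crypts, at 82.8 and 82.2 CPM against 729 and 491 CPM (-2.89 ± 0.34) and at 44.2 and 60.7 CPM against 631 and 385 CPM (-3.28 ± 0.42), and lower in WT crypts by -4.29 ± 0.36 and -6.26 ± 0.49. Sgk1, a kinase induced by corticosteroids, was higher, at 77.3 and 82.7 CPM against 9.97 and 10.6 CPM (2.96 ± 0.17, adjusted p = 6.1e-06), while Nr3c1, the glucocorticoid receptor, was lower, at 65.1 and 72.5 CPM against 177 and 163 CPM (-1.30 ± 0.15). Of 16 genes of the glucocorticoid response, 8 were higher (50%) and 4 lower (25%), beside 20.5% and 16.1% of all genes. Per1 and Per2 of the circadian clock were at 54.99 and 34.1 CPM against 12.9 and 18.8 CPM (1.49 ± 0.25) and 52.3 and 54.03 CPM against 15.7 and 24.2 CPM (1.42 ± 0.23), among 5 higher (21.7%) and 1 lower (4.35%) of 23 clock genes, beside 20.5% and 16.1% of all genes, and the hour of collection is not given in the labels. Of 24 amino acid response genes, 11 were lower (45.8%) and 2 higher (8.33%), beside 16.1% and 20.5% of all genes. Fewer were lower without Eed KO crypt 2 or Eed KO organoid 1. Cth, which makes cysteine, was at 15.5 and 21.3 CPM against 77.4 and 78.7 CPM (-2.09 ± 0.18), and was higher in WT crypts by 0.97 ± 0.17. Of 22 targets of NRF2, the regulator of antioxidant genes, 11 were lower (50%) and none was higher, beside 16.1% and 20.5% of all genes. Among the lower ones, Nqo1, a quinone reductase, was at 28.98 and 56.7 CPM against 104 and 102 CPM (-1.26 ± 0.31). Of 14 mitochondrially encoded genes 11 were higher (78.6%) and none was lower, beside 20.5% and 16.1% of all genes. Among the higher ones was mt-Co3, a subunit of cytochrome c oxidase, at 21378 and 25702 CPM against 11444 and 9318 CPM (1.18 ± 0.20). The crypts also had the higher share of mitochondrial counts.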
